A study of Mus musculus with 7 samples.

Results

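The genes described are the integrins and the adaptor proteins of focal adhesions, 36 of the 21176 genes in the deposited table. They were chosen by symbol: every integrin alpha and beta subunit gene in the table, 16 alpha and 8 beta, and 12 named adaptors. RNA was sequenced from FDCs (follicular dendritic cells, which form the stroma of B-cell follicles), sorted from popliteal lymph nodes of male mice aged 8 to 12 weeks that had not been immunized. Wild-type (WT) mice gave 4 samples. Mice without Ngfr (Ngfr KO), which encodes the p75 neurotrophin receptor, gave 3, and lymph nodes of several animals were pooled for each sample. The labels name no other allele or agent, and they do not say whether the deletion is limited to a cell type, so no more than the genotype label is known of it.

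Integrins are receptors made of 1 alpha and 1 beta subunit that bind matrix proteins or adhesion molecules of other cells. Their short cytoplasmic tails bind talin and kindlin, which switch the receptor on, and through vinculin, paxillin and the complex of integrin-linked kinase (ILK), PINCH and parvin they are tied to actin. FDCs are known for displaying VCAM-1, ICAM-1 and MAdCAM-1, the ligands of B-cell integrins, and their own integrins anchor them in the follicle's matrix.

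Values are TMM-normalised signal per gene, read counts scaled by 1 factor per sample. Libraries held 17244925 to 18873542 reads in WT and 20741770 to 21538400 in Ngfr KO, so every Ngfr KO library was deeper. After thinning every library to an equal number of reads, the same 10 genes were called as are given next. A value of 1 was worth 230.08 to 294.81 reads. Ngfr itself ranged from 0.377 to 1.3 in WT. It ranged from 0.184 to 0.353 in Ngfr KO, where 46 to 104 reads were left, and edgeR did not call it (log2 change -1.55, adjusted p = 0.0574). All 14 FDC markers listed passed the filter on low values, and 13 of them were called higher in Ngfr KO. Blood endothelial markers were present as well and went the other way, with a summed value of 156 to 202 in WT against 36.7 to 67.6 in Ngfr KO, and 12 of 12 tested were called lower. In sorted bulk samples, fewer cells of a type and less RNA per cell cannot be told apart.

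Of the 36 genes, 22 reached a value of 1 in 3 or more samples and were tested with limma. In Ngfr KO 2 rose, Ilk and Itgav, and 8 fell: Itga1, Itga2b, Itga9, Tln2, Itga2, Itgb3, Pxn and Bcar1. The remaining 12 did not pass the adjusted p of 0.05. The 10 calls make 45.5% of the 22 tested, and over all 8326 genes tested 34.2% were called (limma, adjusted p under 0.05). The share called higher was 18.3% over all genes and the share called lower 15.8%. The median log2 change was -0.30 over the 22 genes and 0.02 over all genes tested. The groups did not overlap in 11 of the 22 (3 with Ngfr KO higher, 8 with it lower), against 40.9% of all genes tested (22.6% and 18.3%). With edgeR on the recovered reads 33 of the genes could be tested and 10 were called, 3 higher and 7 lower, where 15.2% of all genes tested were called (8.67% higher, 6.55% lower). These genes have long transcripts, with a median of 4972.5 bases against 3354 over all genes tested. After removal of each library's dependence on GC content and length, 2 of the genes were called higher and 6 lower.

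**Figure D1:**
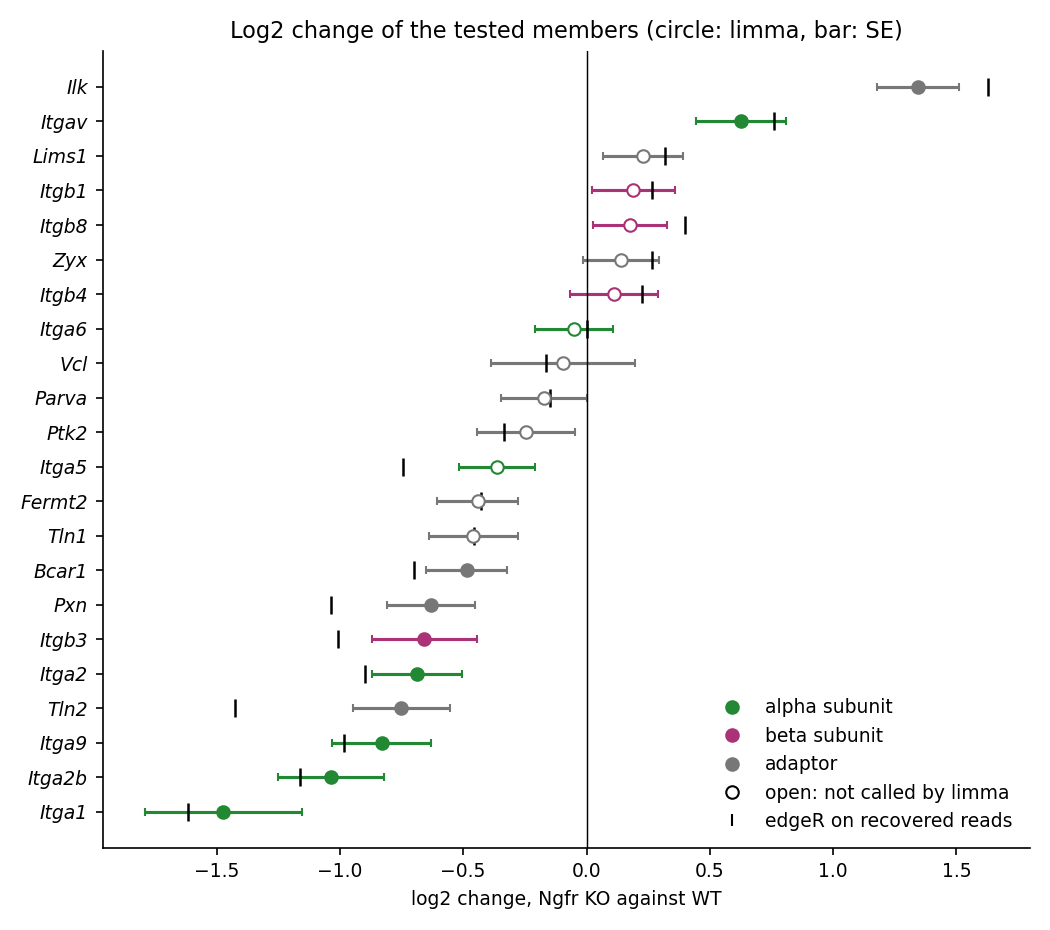
Log2 change of the 22 tested genes between Ngfr KO (n = 3) and WT (n = 4), with limma's value on the log2(value + 1) scale as circles with SE bars, filled where called, and edgeR's value on recovered reads as black ticks. Ilk and Itgav stand alone as filled circles on the right, and 5 integrin subunits are filled on the left.

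By role, of 7 alpha subunits tested 4 were called lower and 1 higher, and of 4 beta subunits 1 was called lower. Of 11 adaptors tested 3 were called lower and 1 higher. The calls make 71.4% of the alpha subunits, 25% of the beta subunits and 36.4% of the adaptors tested. Over all genes tested the share was 34.2% (18.3% higher, 15.8% lower), so those of the beta subunits and adaptors were not far above it.

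The promoters of 4 of the called genes are shown to set genes that fell beside those that rose: Itga1 and Itga2, collagen receptor subunits that lie next to each other on chromosome 13 and both fell, and Itgav and Ilk, the 2 genes called higher. Each run holds the 250 bases before the gene's start in RefSeq (GRCm38.p6), written 5′ to 3′ on the gene's strand, with matches to the Krüppel-like factor core CACCC on either strand in capitals. The windows are chr13:115101965-115102214 (minus strand) for Itga1, chr13:114932101-114932350 (minus) for Itga2, chr2:83724147-83724396 (plus) for Itgav and chr7:105736340-105736589 (plus) for Ilk.
Itga1: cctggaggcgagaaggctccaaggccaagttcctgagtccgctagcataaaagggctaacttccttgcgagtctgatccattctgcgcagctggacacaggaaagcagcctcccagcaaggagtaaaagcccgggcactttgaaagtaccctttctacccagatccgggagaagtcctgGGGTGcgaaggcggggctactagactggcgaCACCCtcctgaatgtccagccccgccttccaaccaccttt
Itga2: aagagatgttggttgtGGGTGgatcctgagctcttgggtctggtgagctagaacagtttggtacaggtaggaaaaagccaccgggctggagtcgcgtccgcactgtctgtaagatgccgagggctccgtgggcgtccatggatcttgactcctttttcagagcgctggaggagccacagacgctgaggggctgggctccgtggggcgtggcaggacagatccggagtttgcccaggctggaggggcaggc
Itgav: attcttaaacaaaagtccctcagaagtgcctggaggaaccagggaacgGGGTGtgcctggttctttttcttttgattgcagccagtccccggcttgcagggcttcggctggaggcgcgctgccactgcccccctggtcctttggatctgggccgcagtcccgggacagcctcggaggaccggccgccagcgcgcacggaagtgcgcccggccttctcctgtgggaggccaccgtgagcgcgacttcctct
Ilk: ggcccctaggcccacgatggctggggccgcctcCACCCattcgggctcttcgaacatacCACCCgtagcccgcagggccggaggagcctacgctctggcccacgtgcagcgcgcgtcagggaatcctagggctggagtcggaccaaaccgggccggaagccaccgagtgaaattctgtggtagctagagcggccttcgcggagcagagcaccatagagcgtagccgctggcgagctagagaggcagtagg
Both the genes that fell and those that rose hold 1 or 2 matches to CACCC, and 52.0% of the 32851 RefSeq promoter windows of this length hold one. None of the 4 windows holds the AP-1 motif TGANTCA (6.75% of all windows), the TEAD motif GGAATG (12.6%), the Sp1 motif GGGCGG (32.7%), the RBPJ motif TGGGAA (21.6%) or the CArG box (1.47%) on either strand. RefSeq gives Ilk a second start, whose window (chr7:105736475-105736724) holds no CACCC and 3 matches to GGGCGG. These are matches of letters, not sites shown to be bound.

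Itga1 and Itga2, which bind collagen, fell. Itga1 (ENSMUSG00000042284, chromosome 13, 114953096 to 115101964, minus strand, GRCm38), which with Itgb1 forms the receptor for collagen IV and other collagens, had values of 14.5, 14.9, 7.50 and 6.74 in WT replicates 1 to 4 and of 3.16, 5.23 and 1.59 in Ngfr KO replicates 1 to 3. WT replicates 1 and 2 stood well above WT replicates 3 and 4, and the groups did not overlap. limma gave a log2 change of -1.47 (SE 0.32, adjusted p = 0.00499). edgeR called Itga1 as well (-1.62, adjusted p = 0.0330), but in only 3 of the 7 edgeR fits that left out 1 library, losing it without WT replicate 1 or 2 and without Ngfr KO replicate 1 or 3. Itga2 (ENSMUSG00000015533, chromosome 13, 114833081 to 114932100, minus strand), the alpha subunit of the platelet and epithelial collagen receptor, had 3.18, 3.27, 4.76 and 2.66 in WT and 1.5, 2.27 and 1.51 in Ngfr KO. Its groups did not overlap either, and the fitted change on the log2 scale was -0.69 (SE 0.18, limma adjusted p = 0.0141). Without Ngfr KO replicate 1 Itga2 was not called (limma adjusted p = 0.0595), nor with the trend with GC content and length removed (0.108). The other collagen-binding subunits were nearly absent, with at most 27 reads of Itga10 and 39 of Itga11 in any sample. Itga11 had 1 read in the 4 WT libraries together and 39, 12 and 21 in Ngfr KO. The ratio of its normalised reads was 89.2, with an exact 95% interval of 15.5 to 3572 that covers counting error only. edgeR called Itga11 (adjusted p = 0.0182), but not without Ngfr KO replicate 1 (0.0809).

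The laminin-binding subunits Itga6, Itgb4 and Itga3 gave no call. Itga6, which pairs with Itgb1 or Itgb4, ranged from 5.19 to 6.89 in WT and from 4.93 to 6.06 in Ngfr KO. Itgb4, the beta subunit of hemidesmosomes, ranged from 1.96 to 2.92 and from 2.21 to 3.83. Their log2 changes were -0.05 (SE 0.16, limma adjusted p = 0.819) and 0.11 (SE 0.18, limma adjusted p = 0.643), and the sign of each flipped under some alternatives. With the GC and length trend removed, Itgb4 had 0.44 (limma adjusted p = 0.0824). Itga3, another laminin-binding subunit, did not reach a value of 1 in any sample (0.183 to 0.604 in WT, 0.0521 to 0.258 in Ngfr KO, edgeR adjusted p = 0.207).

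Among the subunits that recognise RGD sequences, Itgav alone was called higher. Itgav (ENSMUSG00000027087, chromosome 2, 83724397 to 83806916, plus strand), the alpha V subunit that binds vitronectin, fibronectin and MFG-E8, had 5.83, 8.59, 7.27 and 6.42 in WT and 11.4, 9.22 and 13.6 in Ngfr KO. Every Ngfr KO sample was above every WT sample, with Ngfr KO replicate 2 and WT replicate 2 closest. limma gave 0.63 on the log2 scale (SE 0.18, adjusted p = 0.0217). edgeR gave 0.76 (adjusted p = 0.0280). Itgav was not called without WT replicate 1 (limma adjusted p = 0.0583), Ngfr KO replicate 1 (0.0678) or Ngfr KO replicate 3 (0.0589). Itga5, the fibronectin receptor's alpha subunit, had 0.709 to 1.36 in WT against 0.472 to 0.811 in Ngfr KO. It was not called (log2 change -0.36, SE 0.16, limma adjusted p = 0.0867), except without WT replicate 4 (0.0408). Itga8, the nephronectin receptor's alpha subunit, had 88, 79, 32 and 73 reads in WT and none in any Ngfr KO library. Set against 3 reads in the Ngfr KO library where they weigh most, the WT mean was at least 22-fold higher, and edgeR called Itga8 (adjusted p = 0.00554). It was called as well in each fit that left out 1 library, with adjusted p-values from 0.00745 to 0.0203.

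No partner of alpha V was called higher. Itgb3 (ENSMUSG00000020689, chromosome 11, 104608000 to 104670476, plus strand) had 2.87, 2.71, 2.45 and 1.21 in WT and 1.32, 1.32 and 0.605 in Ngfr KO. WT replicate 4 lay below Ngfr KO replicates 1 and 2, so the groups overlapped. limma gave a log2 change of -0.66 (SE 0.21, adjusted p = 0.0329). The call was lost with edgeR (adjusted p = 0.0952) and in 5 of the 7 fits that left out 1 library, those without WT replicate 1 (0.0833), 2 (0.0814) or 3 (0.0619) and those without Ngfr KO replicate 2 (0.0546) or 3 (0.127). It was lost as well with the GC and length trend removed (0.119) and without a filter (0.115). Itgb8, the beta subunit of the integrin that activates latent TGF-beta, spanned 0.681 to 1.19 in WT, 1.03 to 1.43 in Ngfr KO, and was not called (log2 change 0.18, SE 0.15, limma adjusted p = 0.381). With the GC and length trend removed its log2 change was 0.47 (limma adjusted p = 0.0668). Itgb5 and Itgb6, further partners of alpha V, had at most 17 and 14 reads in any library and passed the filter of neither limma nor edgeR. Itgb5 had 17, 7, 0 and 0 reads in WT and 1, 0 and 0 in Ngfr KO. Itgb6 had 14, 5, 4 and 8 in WT and 2, 0 and 4 in Ngfr KO, and its normalised values did not overlap.

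Itga2b fell together with Itgb3, its only known partner. Itga2b (ENSMUSG00000034664, chromosome 11, 102453297 to 102470122, minus strand), the alpha IIb subunit of the platelet fibrinogen receptor, had 11.1, 9.38, 7.58 and 5.97 in WT and 4.83, 3.15 and 2.86 in Ngfr KO, with no overlap. limma gave a log2 change of -1.04 (SE 0.21, adjusted p = 0.00405). Itga2b was called under each limma alternative that tested it and by edgeR (-1.16, adjusted p = 0.0186), though not by edgeR without Ngfr KO replicate 2 or 3. Of the platelet and megakaryocyte markers listed, Pf4 alone reached a value of 1. Gp1ba, Gp1bb, Gp6 and Treml1 stayed at or under 0.142 in every library. The summed value of the platelet list was 2.06 to 3.51 in WT, against 0.906 to 4.66 in Ngfr KO, so it overlapped between the groups. Only 5 of the 8 platelet markers listed were in the table, and limma tested 1 of them. The part of platelet RNA in the Itga2b values was not tested.

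**Figure D2:**
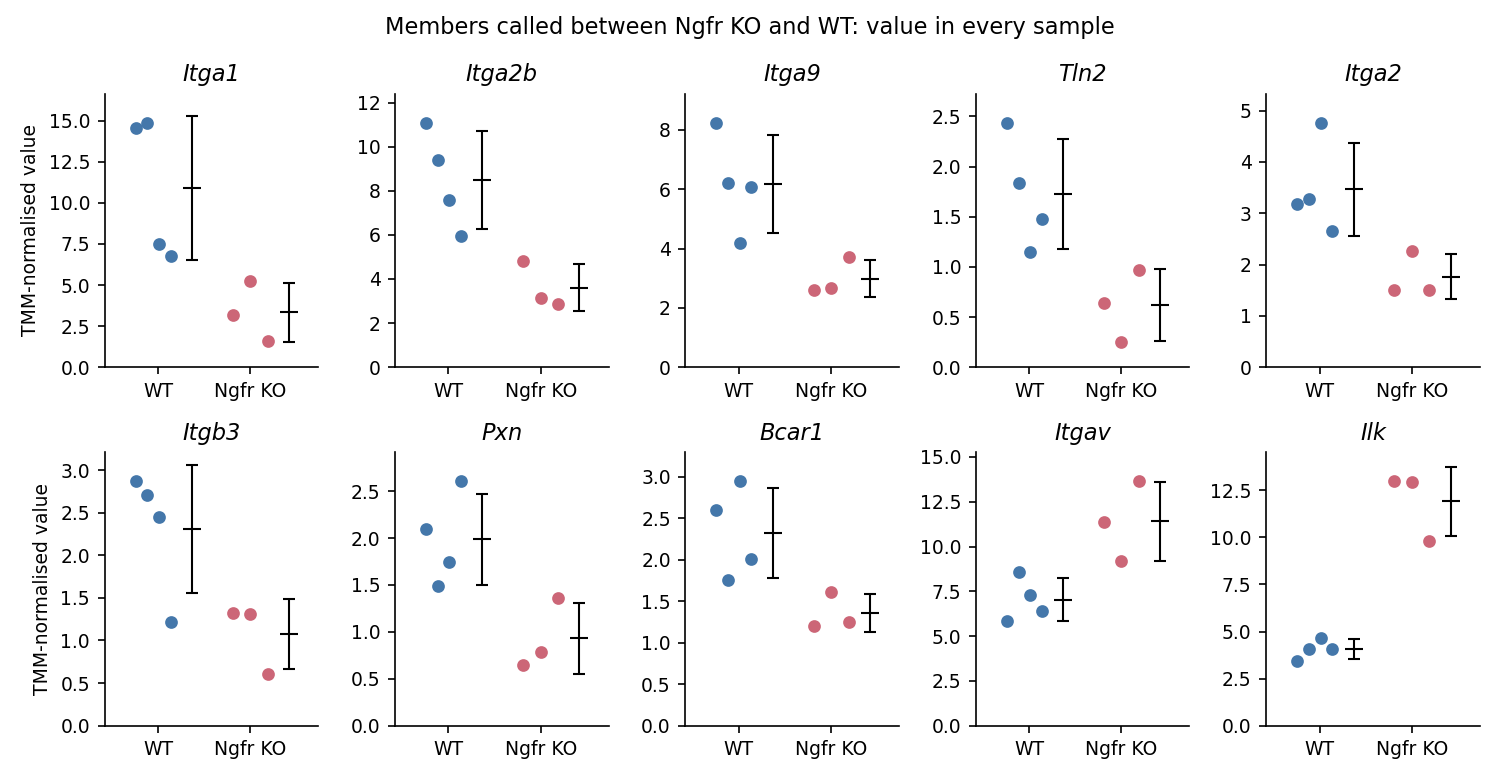
TMM-normalised value of the 10 genes called between Ngfr KO and WT, 1 point per sample, with the mean and SD beside each group, each panel with its own axis from 0. Itgb3 is the only panel in which the groups overlap, with WT replicate 4 (1.21) under Ngfr KO samples (1.32).

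Itga9 (ENSMUSG00000039115, chromosome 9, 118606690 to 118901003, plus strand), the receptor subunit for tenascin-C, VCAM-1 and other ligands, had 8.24, 6.21, 4.18 and 6.08 in WT and 2.59, 2.66 and 3.72 in Ngfr KO, with no overlap (log2 change -0.83, SE 0.20, limma adjusted p = 0.00870). The call held in each limma fit that left out 1 library and in 3 of 7 edgeR fits that did, those without WT replicate 3 or 4 and without Ngfr KO replicate 3. It was lost under the replicate block with the GC and length trend removed (limma adjusted p = 0.0696). Lymphatic endothelial markers were also lower where Itga1, Itga2b and Itga9 were. Summed over 5 such markers, the values were 115, 96.8, 68.4 and 46.8 in WT replicates 1 to 4 and 38.1, 27.8 and 22.3 in Ngfr KO replicates 1 to 3, and 4 of the 5 were called lower. Prox1, which defines lymphatic endothelium, lay between 18.5 and 33.5 in WT, and between 5.69 and 7.0 in Ngfr KO. In WT, Itga1 and Itga2b were also higher in replicates 1 and 2 than in 3 and 4, as the lymphatic sum was. The blood endothelial sum was 202, 156, 184 and 156 in WT replicates 1 to 4. Itga9 was lowest in WT replicate 3 (4.18), where neither endothelial sum was lowest. The part of endothelial RNA in these integrin values was not tested.

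The genes of leukocyte integrins stayed below a value of 1, not divided by length, in every sample. Itgb2, the beta subunit of LFA-1 and Mac-1, had 106, 92, 0 and 132 reads in WT replicates 1 to 4 and 162, 149 and 96 in Ngfr KO. Itgal, its partner in LFA-1, had 104, 50, 0 and 65 reads in WT and 64, 62 and 62 in Ngfr KO, so both were listed at 0 in WT replicate 3 and present elsewhere. Itgam and Itgax, the alpha subunits of Mac-1 and of the complement receptor CR4, had at most 43 and 20 reads in any library. Reads of Itgam are uncertain, since 68.7% of its exon bases overlap another annotated gene on the same strand. Itgb7 had 5 to 218 reads and Itga4, its partner in the MAdCAM-1 receptor, 28 to 196. None of these had an edgeR adjusted p under 0.05 (0.531 to 0.997 for those tested). Itgae, the partner of Itgb7 in the E-cadherin receptor of intraepithelial T cells, had 18 to 35 reads in each WT library and 0, 4 and 0 in Ngfr KO, with a ratio of 0.0491 (exact 95% interval 0.0131 to 0.130, counting error only) and an edgeR adjusted p of 0.0675 (0.0498 without Ngfr KO replicate 2). The summed T-cell list overlapped between groups, at 4.69 to 14.0 in WT, against 6.24 to 13.3 in Ngfr KO, and was lowest in WT replicate 3.

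Integrin levels can be compared between genes once divided by transcript length. Per kilobase of annotated exon, Itgb1, the common beta subunit, stood far above the rest. Its level was 6.17 ± 0.31 in WT (SD, n = 4), and 7.09 ± 0.65 in the Ngfr KO samples (SD, n = 3). It made up 85.2% ± 1.5 of the summed beta subunit level in WT and 87.2% ± 2.6 in Ngfr KO. The undivided values of Itgb1 were 26.2, 26.3, 24.4 and 23.9 in WT and 27.5, 27.3 and 32 in Ngfr KO. These did not overlap, yet Itgb1 was not called (log2 change 0.19, SE 0.17, limma adjusted p = 0.397). The summed alpha subunit level per kilobase was 5.99, 5.64, 4.67 and 4.41 in WT and 3.55, 3.20 and 3.47 in Ngfr KO, while the beta sum was 6.79 to 7.76 and 7.77 to 8.71.

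The leading alpha subunit differed between the genotypes. In WT, Itga2b took 29.7% ± 3.8 of the summed alpha level, Itga9 15.4% ± 3.0, Itga6 12.9% ± 3.3, Itgav 12.8% ± 2.5, Itga1 11% ± 3.0 and Itga2 9.58% ± 3.17 (SD, n = 4). The ranges of the last 5 over the WT libraries all overlapped. In Ngfr KO, Itgav led with 31.1% ± 5.0, and Itga2b had 19.3% ± 5.0, Itga6 18.3% ± 1.2 and Itga9 11.4% ± 2.3 (SD, n = 3). The order below the leading subunit depended on the length used: with the longest transcript in place of all annotated exons, Itga6 (24.9%) was above Itga2b (19.95%) in Ngfr KO, and in WT Itga6 had 18.1% and Itga9 11.4%, while Itga2b (31.7%) in WT and Itgav (30.8%) in Ngfr KO still had the largest mean shares. Itgav had the largest share of the subunits in each Ngfr KO library (26.8% to 36.6%) and Itga2b in each WT library (24.8% to 34.0%). Shares of a sum depend on each other, so the share of Itga6 was higher in Ngfr KO (17.1% to 19.3%, against 9.61% to 17.3%) though Itga6 itself was not called.

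**Figure D3:**
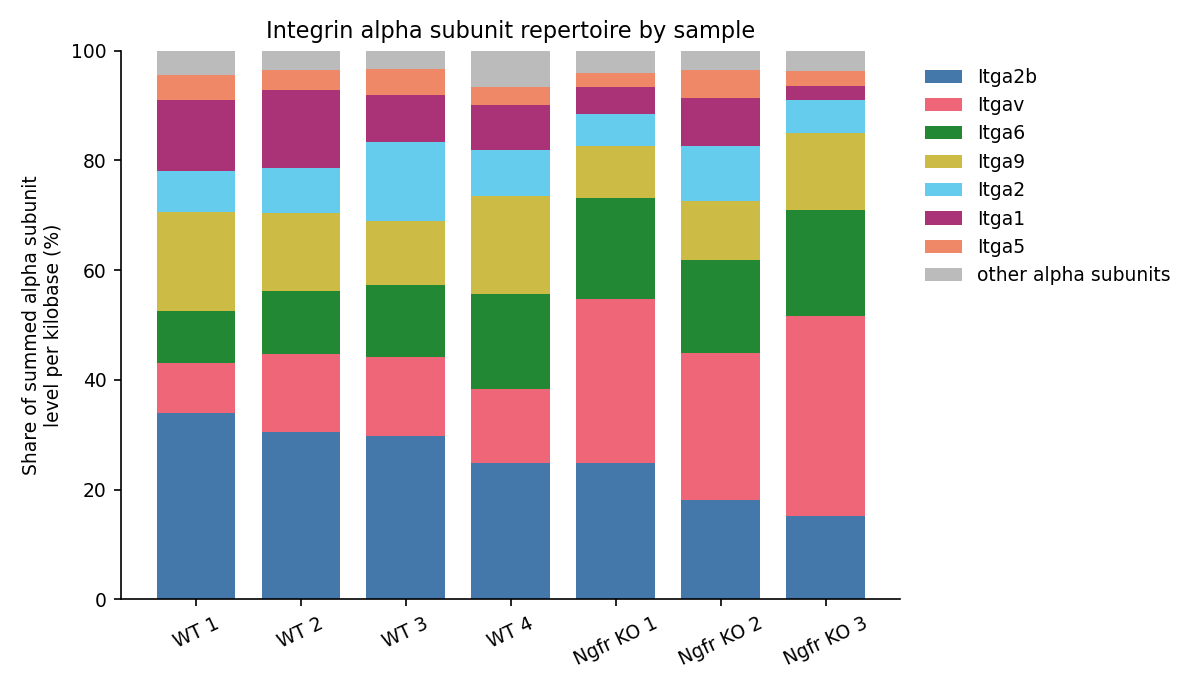
Share of each alpha subunit in the summed alpha subunit level per kilobase of exon, 1 stacked bar per sample. Itga2b has the largest part in the 4 WT bars (24.8% to 34.0%) and Itgav in the 3 Ngfr KO bars (26.8% to 36.6%).

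Of the adaptors that switch integrins on, Tln2 was called lower. Tln1, the talin of non-neural cells, which links beta tails to actin, had 10.6, 9.97, 7.66 and 11.3 in WT and 6.70, 5.83 and 8.22 in Ngfr KO. WT replicate 3 lay within the Ngfr KO range, and Tln1 was not called (log2 change -0.46, SE 0.18, limma adjusted p = 0.0650), except without WT replicate 3 (0.0264), without Ngfr KO replicate 3 (0.0353) and with quantile normalization (0.0296). With the GC and length trend removed, the log2 change of Tln1 was -0.12 (limma adjusted p = 0.566). Tln2 (ENSMUSG00000052698, chromosome 9, 67217087 to 67559703, minus strand), the second talin, had 2.44, 1.83, 1.15 and 1.48 in WT and 0.642, 0.251 and 0.973 in Ngfr KO, without overlap. By limma it changed by -0.75 on the log2 scale (SE 0.20, adjusted p = 0.0130), and it was not called without Ngfr KO replicate 2 (0.0700) or with the GC and length trend removed (0.0914). Fermt2, the kindlin of stromal cells, had 10.2, 8.45, 9.13 and 9.36 in WT and 6.30, 5.61 and 7.94 in Ngfr KO. Its groups did not overlap, and it missed the threshold (log2 change -0.44, SE 0.16, limma adjusted p = 0.0536). It was called with quantile normalization (0.0181), with the GC and length trend removed (0.0184), with a pseudocount of 5 (0.0489), with robust eBayes (0.0468) and without Ngfr KO replicate 3 (0.0207). Fermt3, the kindlin of blood cells, had 119 to 209 reads in WT, against 146 to 450 in Ngfr KO and was not called by edgeR (adjusted p = 0.181).

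Within the complex of ILK, PINCH and parvin, the values of 1 gene rose and those of the other two did not pass the test. Ilk (ENSMUSG00000030890, chromosome 7, 105736592 to 105742925, plus strand), the pseudokinase at its centre, had 3.42, 4.10, 4.68 and 4.06 in WT and 13.0, 13.0 and 9.79 in Ngfr KO. Every Ngfr KO sample was above every WT sample by a wide margin, and this was the largest rise of the 22 (log2 change 1.35, SE 0.17, limma adjusted p = 3.40e-04). It was called under each alternative that tested it, the edgeR fits without 1 library included. Ilk is uncertain in another way: 76.7% of its exon bases lie within an annotated transcript of Taf10, a gene of the general transcription factor TFIID, on the opposite strand, and the labels do not say that reads were counted by strand. Taf10 itself had 1.68, 2.86, 4.05 and 5.07 in WT and 3.06, 3.09 and 2.25 in Ngfr KO and was not called (log2 change -0.16, SE 0.24, limma adjusted p = 0.625). Lims1, which encodes PINCH-1, had 8.22 to 10.9 in WT, 10.4 to 12.1 in Ngfr KO (log2 change 0.23, SE 0.16, limma adjusted p = 0.286). Parva, which encodes alpha-parvin, had 5.03 to 7.77 and 4.73 to 6.09 (log2 change -0.17, SE 0.17, limma adjusted p = 0.456).

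Paxillin and p130Cas, scaffolds that pass integrin signals on, fell. Pxn (ENSMUSG00000029528, chromosome 5, 115506676 to 115555987, plus strand), which encodes paxillin, had 2.10, 1.49, 1.74 and 2.61 in WT and 0.646, 0.790 and 1.36 in Ngfr KO, a log2 change of -0.63 (SE 0.18, adjusted p = 0.0182 by limma). It was not called without Ngfr KO replicate 1 (0.0854) or 2 (0.0693). Bcar1, which encodes p130Cas, had 2.60, 1.76, 2.95 and 2.01 in WT and 1.21, 1.62 and 1.25 in Ngfr KO, a log2 change of -0.49 (SE 0.16, adjusted p = 0.0383 by limma). In both genes the groups did not overlap, but the call of Bcar1 was lost with edgeR (adjusted p = 0.0913), without WT replicate 1 (0.0903) or 3 (0.0695) and without Ngfr KO replicate 1 (0.128), 2 (0.0560) or 3 (0.0896). Ptk2, which encodes focal adhesion kinase, had 1.35 to 2.95 in WT, 0.933 to 1.79 in Ngfr KO, and was not called (log2 change -0.25, SE 0.20, limma adjusted p = 0.350). Zyx, the zyxin gene, had 1.91 to 2.73 and 2.16 to 2.98 (log2 change 0.14, SE 0.16, limma adjusted p = 0.502).

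Vcl, which encodes vinculin, had 8.22, 8.13, 3.89 and 2.69 in WT and 4.09, 5.17 and 5.33 in Ngfr KO. All 3 Ngfr KO samples lay between the pairs of WT samples. Vcl was not called (log2 change -0.10, SE 0.29, limma adjusted p = 0.814), and its sign flipped without WT replicate 1 (0.09) or 2 (0.09), without Ngfr KO replicate 1 (0.00) and with the GC and length trend removed (0.06). WT replicates 1 and 2 were thus high in Vcl, Itga1 and the lymphatic sum alike. Between genotypes, the mean of Vcl was 5.73 in WT and 4.86 in Ngfr KO. Each Ngfr KO sample was above WT replicates 3 and 4 in Vcl and below WT replicates 1 and 2. In the lymphatic sum each was below every WT sample (22.3 to 38.1 against 46.8 to 115). The part of lymphatic endothelial RNA in the Vcl values was not tested. Vcl shares 25.5% of its exon bases with Ap3m1 on the opposite strand, whose values spanned 5.02 to 7.58 in WT, 6.97 to 9.75 in Ngfr KO.

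Seen as receptors, the subunits of a pair did not all move together. Both subunits of alpha IIb beta 3 were called lower. In alpha 1 beta 1, alpha 2 beta 1 and alpha 9 beta 1 the alpha subunit was called lower and Itgb1 was not called. In alpha V beta 3 the alpha subunit was called higher and the beta subunit lower. In alpha 6 beta 4 and alpha 6 beta 1 neither subunit was called.

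Other genes of integrin adhesion were taken from a list of 133, of which 127 were in the table and 104 were tested. Of these, 15 were called higher and 31 lower, together 44.2% against 34.2% over all genes tested (18.3% higher, 15.8% lower), and the median log2 change was -0.13. With edgeR 13 of 125 tested were called higher and 20 lower, where 15.2% of all genes were called. The share called by limma was 27.8% of the matrix ligands, 71.4% of the ligands on cells, 38.9% of the regulators of activation, 54.5% of the adaptors linked to actin, 38.5% of the signalling genes and 53.8% of the membrane partners. Counting calls in either direction, the shares for matrix ligands, regulators and signalling genes lay near that over all genes. By direction they differed from it. Of 18 regulators 0 were called higher and 7 lower, and of 26 signalling genes 1 was called higher and 9 lower. Of 18 matrix ligands 1 was called higher and 4 lower. Over all genes tested, more were called higher (18.3%) than lower (15.8%).

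Several ligands on cells rose. Of 7 tested ligands on cells or bridging cells, 4 were called higher, Madcam1 (log2 change 2.69), Mfge8 (2.57), Vcam1 (1.38) and Icam1 (0.89), and Icam2, an endothelial ligand of LFA-1, was called lower (-0.75, SE 0.19, limma adjusted p = 0.0113). The first 4 are FDC markers too. Their receptors' subunits in the table went different ways: Itgav, a receptor subunit for MFG-E8, rose, Itga9, one for VCAM-1, fell, and Itga4, Itgb7 and Itgb2 were below a value of 1 in every sample. Of 18 matrix ligands tested, 1 was called higher and 4 lower. Fn1, the fibronectin gene, was the one called higher (log2 change 0.91, limma adjusted p = 0.0433). Its groups overlapped, at 5.63 to 15.9 in WT against 11.2 to 24.9 in Ngfr KO, and edgeR did not call it (adjusted p = 0.0748). Lama4, a laminin chain of vessel basement membrane, fell from 6.72 ± 1.95 in WT to 2.48 ± 1.41 in Ngfr KO, and Nid1, which links laminin to collagen IV, from 13.1 ± 4.0 to 6.47 ± 2.53. Tnc, which encodes tenascin-C, fell from 10.5 ± 2.8 to 4.74 ± 1.55, and Lamb2 from 2.12 ± 0.61 to 1.0 ± 0.42 (SD, n = 4 and 3). Their limma adjusted p-values were 0.00814, 0.0160, 0.00689 and 0.0274, and of the 4 only Tnc was also called by edgeR (adjusted p = 0.0369).

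Among the regulators of integrin activation, 7 of 18 tested genes were called, all lower. Dab2, an adaptor of clathrin-mediated endocytosis that binds beta tails, fell from 19.5 ± 6.5 to 3.55 ± 1.32 (log2 change -2.17, SE 0.26, limma adjusted p = 3.20e-04). Kank3, a talin-binding protein, fell by 1.63 on the log2 scale (limma adjusted p = 7.10e-04). Rasip1, an endothelial Rap1 effector, fell by 1.35 (7.20e-04) and Rasgrp2, the exchange factor that activates Rap1 in platelets, by 0.83 (0.00215). Rap1b, a Rap1 GTPase itself, was not called (0.24, limma adjusted p = 0.377). The endothelial sums given above were lower in the same samples, and the part of endothelial RNA in these falls was not tested.

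Of 22 tested adaptors linked to actin, 3 were called higher and 9 lower. Lasp1 fell by 1.13 on the log2 scale, Tns2 by 1.02, Tns1 by 0.84 and Nexn by 0.83. Tns1 and Tns2 encode tensins, which bind beta tails in mature adhesions. Tgfb1i1, which encodes the paxillin relative Hic-5, rose from 1.75 ± 0.35 in WT to 4.17 ± 0.42 in Ngfr KO (log2 change 0.92, SE 0.16, limma adjusted p = 0.00157). Pxn fell while its relative rose, each without overlap of the groups. Pdlim5 and Tes, LIM-domain proteins, rose by 0.55 and 0.50.

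Of 26 tested signalling genes, 1 was called higher and 9 lower. Arhgef7, which encodes the exchange factor beta-PIX, fell by 1.08, its partner Git2 by 0.90 and Rac1, a GTPase of lamellipodia, by 0.98 on the log2 scale. Rac1 had 15 ± 2.3 in WT and 7.10 ± 0.91 in Ngfr KO (limma adjusted p = 0.00181). Cdc42, a related GTPase, was the one called higher, from 44.8 ± 5.4 to 65.4 ± 2.2 (log2 change 0.54, SE 0.19, limma adjusted p = 0.0418).

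Membrane partners of integrins were called higher in 6 of 13 tested genes and lower in 1. The tetraspanin genes Cd63, Cd81, Cd9 and Cd82 rose, with log2 changes of 1.06, 1.04, 0.90 and 0.73 (limma adjusted p = 0.0124, 0.0122, 0.0211 and 0.0190), and none of the 4 overlapped between the groups. Cav1, which encodes caveolin-1 and is abundant in endothelium, was the one called lower (-1.50, limma adjusted p = 0.00965). Its groups overlapped, and edgeR did not call it (adjusted p = 0.0670).

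**Figure D4:**
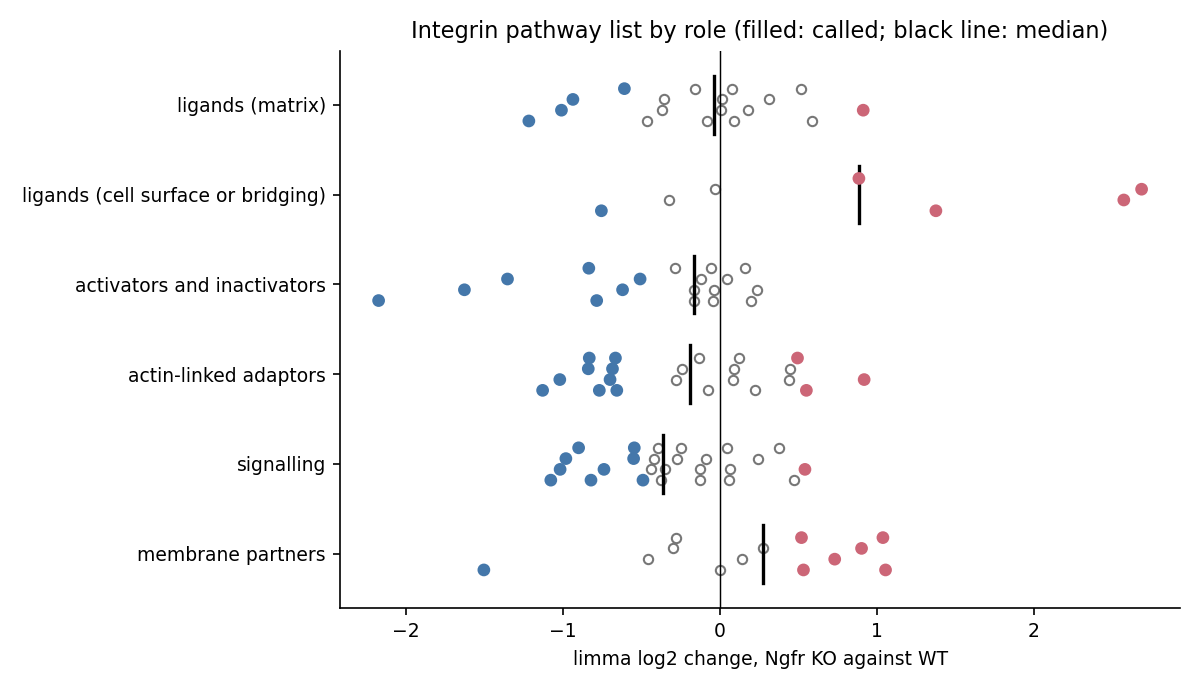
limma log2 change between Ngfr KO (n = 3) and WT (n = 4) of the 104 tested genes of the integrin pathway list by role, filled where called (red higher, blue lower), with each role's median as a black line. The medians are 0.89 for ligands on cells, 0.28 for membrane partners and -0.36 for signalling genes.

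Markers of other cell types in the sorted cells were read from lists of 6 to 14 genes. Besides the endothelial lists, the fibroblastic reticular list moved with genotype: its summed value was 77.2 to 153 in WT, against 243 to 350.0 in Ngfr KO, and 4 of 7 tested were called higher. The myeloid sum was 37.3 to 44.8 in WT, against 47.8 to 94.2 in Ngfr KO, with 2 of 7 called higher and 1 lower. The sums of B-cell, pericyte and platelet markers overlapped between the groups. Of the tested markers, 2 of 4 for pericytes were called higher, both without overlap, and 1 of 5 for B cells was. Over all genes tested by limma 34.2% were called, 18.3% of them all being called higher. The groups did not overlap, with Ngfr KO higher, in 22.6% of all genes tested. Counts from lists this short cannot be told from those shares. The highest values in these lists were those of Dcn (reticular cells) and Aif1 (myeloid cells).

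**Figure D5:**
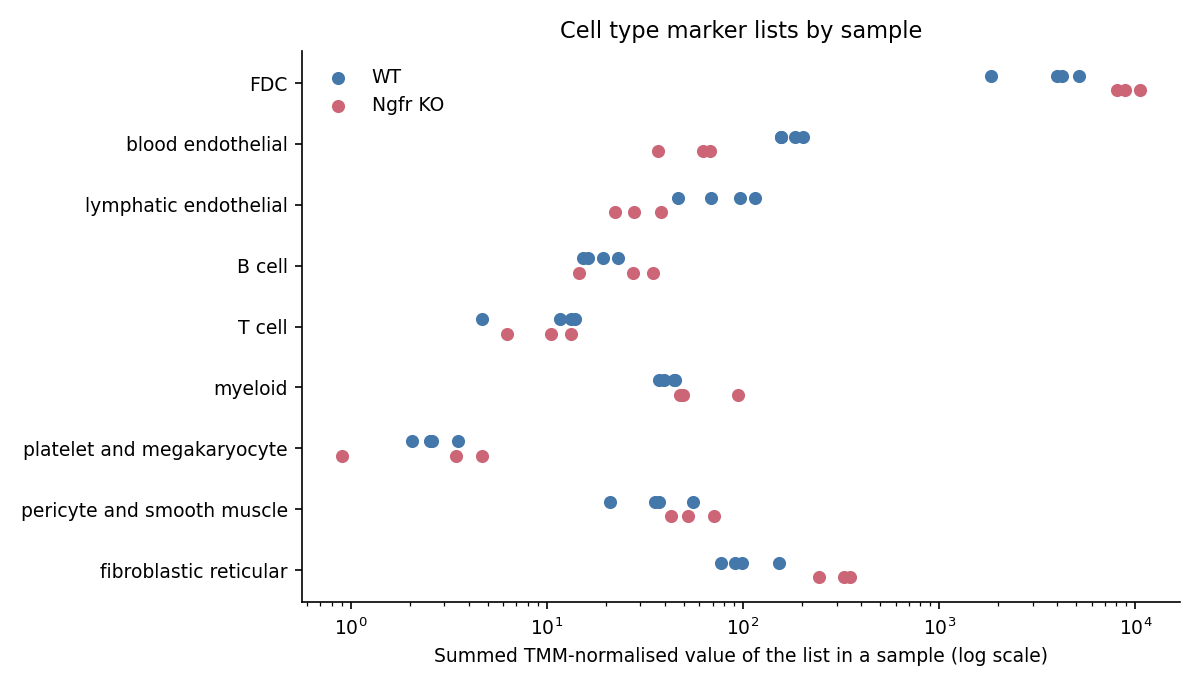
Summed TMM-normalised value of each cell type marker list, 1 point per sample, on a log axis. The blood endothelial sums of Ngfr KO (36.7 to 67.6) lie below all WT sums (156 to 202), and the FDC sums of Ngfr KO (8029 to 10542) above all WT sums (1840 to 5156).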

How the data were processed

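The values are a signal, TMM-normalised (trimmed mean of M values) by the authors and deposited as 1 table of genes by samples. Per the labels' protocols, cDNA came from SMART-Seq v4 and libraries from Nextera XT; per the submitters' processing notes, bcl2fastq 2.20.0.422 and the mm10 build were used. The aligner, counting program and strand setting are not given in the sources used here. In every sample 100% of values were whole multiples of 1 step (within 0.01 read), so reads were recovered by division.

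Ngfr KO was compared with WT over all genes that reached 1 in 3 or more samples by limma 3.58.1 in R 4.3.3 (eBayes with trend) on log2(value + 1), a scale that understates changes of low genes; genes with a Benjamini-Hochberg adjusted p under 0.05 were called. Genes below that filter were read from edgeR 4.0.16 (quasi-likelihood, filterByExpr) on the recovered reads. Each sample pooled several animals, and the labels do not say whether pools shared animals or preparation, so p-values measure the spread between these samples. Positions, exon lengths and overlaps came from GENCODE M21 (GRCm38, the same assembly as mm10), which matched 21118 identifiers and not 58; promoters came from RefSeq and matched 26 of the 36 genes. Both fits were tested on simulated data, with changes larger than those of most called genes and the same dispersion for every gene. Recovery of smaller changes was not tested. The members and lists were chosen with earlier results of these data known. Named were each member, and of the pathway list up to 4 called genes per role and direction without overlap of the groups, by size (1 of these is not reported here); marker lists gave their highest gene and those near 0; Fn1, Cav1, Rap1b, Prox1, Taf10 and Ap3m1 were named after their values were seen. Alternatives were other pseudocounts, filters, scalings and tests, thinned reads, the GC and length trend removed, the replicate number as a block, and leaving out each replicate; edgeR with each replicate left out was chosen after seeing the data.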

Additional observations from a re-analysis of the deposited data

Results flagged for a closer look

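In 3 of the 36 genes, 1 of the 4 WT samples stood apart from the rest by more than Dixon's 95% criterion; chance gives about 1 in 20, or 1.80. Itgb4 had 1.96 in WT replicate 1, where the rest of WT had 2.86 to 2.92. Itga4 had 0.122 in WT replicate 3 and 0.652 to 0.734 in the others; the same library listed Itgb2 and Itgal at 0 and had the lowest T-cell sum (4.69). Itga11 had a value of 0.00374 in WT replicate 2, which is 1 read, and 0 in the others. With the others at 0, any value above 0 passes the criterion, so the rate of 1 in 20 does not apply to Itga11.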

How the results depend on the processing

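Of the 10 called genes, Ilk, Itga1 and Itga2b were called under the 18 limma and edgeR alternatives that tested them with the exception that follows, with limma or edgeR adjusted p-values up to 0.0454. In the 7 edgeR fits without 1 replicate, chosen after seeing the data, Ilk was called in 7, Itga2b in 5, Itga1, Itga9 and Itgav in 3, Itga2 and Tln2 in 2, Pxn and Itgb3 in 1, and Bcar1 in 0. The count of 10 called (2 higher, 8 lower) was 7 without a filter (5 lower), 4 of them shared with the 10, namely Ilk, Itga1, Itga2b and Itga9. With a filter of 10 in 3 or more samples, 2 of the genes could be tested and 0 were called, by limma, 0 higher and 0 lower, where 41.2% of all genes were. Leaving out 1 replicate at a time gave 6 to 11 called, 1 to 2 higher and 4 to 9 lower; the lowest counts came without Ngfr KO replicate 1 or 2. In the pathway list, 46 genes called (15 higher, 31 lower) became 26 without a filter (6 higher, 20 lower), 15 with the stricter filter (10 higher, 5 lower) and 20 lower with edgeR, and 30 to 47 with 1 replicate left out (7 to 15 higher, 23 to 32 lower). The stricter filter tested 25 of its genes, and for the remaining shifts the cause was not tested.

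Replicate numbers did not pair the samples throughout: the correlation of deviations from the group means was 0.30, -0.06 and -0.01 for numbers 1, 2 and 3. Pairs of unlike number ranged from -0.20 to 0.11, so the pair numbered 1 lay above all of them. Whether the samples numbered 1 shared a preparation is not given in the labels. With the replicate block, in which WT replicate 4 adds nothing to the contrast, 9 of the genes were called, 1 higher and 8 lower, Itgav being lost (limma adjusted p = 0.0552).

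The direction of genes that were not called flipped as follows. Itga6 (-0.05) was 0.0072 with median ratio scaling, 0.0036 with edgeR, 0.0183 with the replicate block, 0.0569 with the replicate block and the GC and length trend removed, and -0.10 to 0.0277 with 1 replicate left out. Parva (-0.17) was 0.0234 with that trend removed and 0.0714 with the block as well. Vcl (-0.10) was 0.0559 with the trend removed and -0.35 to 0.0917 with 1 replicate left out, and Itgb4 (0.11) was -0.0394 to 0.25. Zyx (0.14) was 0.03 with the trend removed. By edgeR with 1 replicate left out, Itga10 was -4.04 to 0.52 (0.4677 without Ngfr KO replicate 1), Itgal -0.21 to 0.72, Itgam -0.66 to 1.66 (-0.0919, -0.3979 and -0.3428 without WT replicates 1, 2 and 3) and Itgb7 -0.18 to 1.17. With the longest transcript in place of all annotated exons, the share of Itga6 in the WT alpha level was 18.1%, not 12.9%. Below a value of 1, worth 230.08 to 294.81 reads, results rest on edgeR.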
